A study of Mus musculus with 6 samples.

Results

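The zinc finger genes whose symbol is Zfp followed by a 3-digit number that begins with 9 were taken from an RNA-seq table of mouse ovary. Every gene with exactly such a symbol was included, which gave 58 of the 19423 genes in the table. The rule uses the symbol only, but it was set with earlier results of these data known. All ovaries were labelled day 80 and came from female mice of the strain balb/c-nude, whose immune system tolerates human tumor cells. Group control held 3 libraries of mice with no tumor, and group tumor held 3 libraries of mice injected under the skin with cancer cells, MBA-MD-231 in the labels. The labels name no other allele or agent, and they give no animal or litter numbers and no stage of the estrous cycle. The cells lay under the skin and not in the ovary, and the last digits of the injected cells' name count upward over the treatment labels of the tumor libraries. The p-values below therefore measure only the spread between these libraries, which may in part be technical.

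Most of these genes encode proteins with an array of C2H2 zinc fingers, which read DNA, and a KRAB domain, which recruits the co-repressor TRIM28. TRIM28 in turn brings in the histone methyltransferase SETDB1, HP1 proteins and deacetylases, and the family is best known for silencing retrotransposons and for keeping imprints from the oocyte onwards. The genes multiply by tandem duplication, so that close relatives lie side by side in clusters, and mice that lack such clusters on chromosome 2 or 4 have raised levels of certain retrotransposons. In the deposited annotation 53 of the 58 members carried a KRAB domain and 5 did not. The 5 were Zfp939, Zfp957, Zfp977, Zfp978 and Zfp993. No C2H2 zinc finger was annotated for Zfp957, Zfp972, Zfp977, Zfp978 and Zfp993, of which Zfp972 has the highest FPKM of all members.

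Members lay on 12 chromosomes. Joining members whose neighbours were at most 1 Mb apart gave 6 clusters with 39 members, and 19 members stood alone. The clusters held 13 members on chromosome 4, 10 on chromosome 17, 7 on distal chromosome 2, 4 on chromosome 7, 3 on chromosome 8 and 2 on chromosome 13. Zfp979, listed on a scaffold, and Zfp984, listed with a span over most of chromosome 4, were placed by the RefSeq table of the same build, GRCm38.p6. Deposited spans exceeded 100 kb for 11 members, so the positions below are those of RefSeq. The deposited strand differed from that of the RefSeq promoter for 6 of 51 members, Zfp966 and Zfp972 among them.

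Members of the chromosome 2 cluster resembled each other outside the coding sequence as well. RefSeq promoter windows, 250 bases before to 50 after the start, were on hand for 51 members, and 65 of their 1275 pairs were at least 70% identical over at least 200 aligned columns. The windows of Zfp966 and Zfp967 were identical over all 300 bases, and those of Zfp931, Zfp965, Zfp966, Zfp967, Zfp970 and Zfp971 were between 94.1% and 100% identical. A block of 30 bases, found by comparing the 7 chromosome 2 windows, stood in all 7 without a mismatch and in the windows of 29 of 27025 genes (0.107%) on either strand. The sequences shown are those of the member with the smallest p-value of all (Zfp966), the most abundant member of the same cluster (Zfp972), and a called member of another chromosome with a related block (Zfp950). The windows are chr2:175931051-175931350, chr2:177925601-177925900 and chr19:61140791-61141090 of GRCm38.p6, all on the minus strand and written 5′ to 3′, and capitals mark the block or, in Zfp950, its best ungapped match with 4 mismatches.
Zfp966: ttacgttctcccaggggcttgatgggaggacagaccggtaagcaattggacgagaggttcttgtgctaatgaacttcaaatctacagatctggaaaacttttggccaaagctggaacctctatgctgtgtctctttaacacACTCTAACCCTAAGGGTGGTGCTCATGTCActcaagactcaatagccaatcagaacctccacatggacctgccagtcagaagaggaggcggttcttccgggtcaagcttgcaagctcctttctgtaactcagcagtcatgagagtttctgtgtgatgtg
Zfp972: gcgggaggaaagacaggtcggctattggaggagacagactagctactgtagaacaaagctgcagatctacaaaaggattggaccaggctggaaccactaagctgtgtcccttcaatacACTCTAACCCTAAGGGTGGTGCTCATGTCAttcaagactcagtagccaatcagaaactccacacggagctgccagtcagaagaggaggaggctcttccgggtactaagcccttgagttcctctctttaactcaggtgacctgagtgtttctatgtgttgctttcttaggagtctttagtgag
Zfp950: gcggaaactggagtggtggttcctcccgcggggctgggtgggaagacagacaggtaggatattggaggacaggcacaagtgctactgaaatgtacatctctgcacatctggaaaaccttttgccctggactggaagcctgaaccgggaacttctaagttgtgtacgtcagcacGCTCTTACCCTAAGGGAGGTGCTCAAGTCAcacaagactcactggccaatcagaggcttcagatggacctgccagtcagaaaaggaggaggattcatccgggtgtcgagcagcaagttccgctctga

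The promoters of Zfp966 and Zfp972 thus shared the block, while their log2 fold changes, given below, lay on opposite sides of 0. That of Zfp972 was not called. The word CCAAT, searched on both strands, was present in the windows of 38 of 51 members (74.5%) against 41.058% of all 27025 genes. Many member windows are close copies of each other, so a word they share by descent is counted several times. CCGGAAGT was present in 3 member windows, TGACGTCA in 1 and AAGATGGCG in 0, against 4.307%, 2.031% and 1.639% of all genes, each searched on both strands. Of the 29 genes with the block, 24 were tested for expression, namely the 7 members whose windows defined it and 17 other genes. In tumor 2 of the 24 were higher and 0 lower, with a median log2 fold change of 0.42. Over all genes tested 3.80% were higher and 3.91% lower, and a link of the block to expression was not tested. The 2 were Zfp966 and its neighbour Gm14434.

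Libraries held between 18278614 and 19238900 estimated counts, so that 3 counts, the limit that a count of 0 allows, equal between 0.156 and 0.164 CPM, counts per 1e6 counts of the library. That limit covers counting error only. All genes of every marker list, from oocyte and granulosa to luteal cells, had counts. The 18 oocyte markers summed to between 480.4 and 625.8 CPM in control and between 899.7 and 991.5 CPM in tumor. Adipocyte markers summed to 1019, 1315 and 1145 CPM in control libraries 1, 2 and 3 and to 13131, 1276 and 5491 CPM in tumor libraries 1, 2 and 3. Oviduct markers summed to 2100, 2032 and 452.9 CPM in control and to 1905, 129.2 and 39.9 CPM in tumor, and the luteal markers to at least 14707 CPM in control and at most 8336 CPM in tumor.

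In all, 6 members were higher in tumor ovaries and 1 was lower at an adjusted p under 0.05 (edgeR's quasi-likelihood F test, Benjamini-Hochberg adjustment over all 15787 genes tested). Zfp966, Zfp978, Zfp980, Zfp950, Zfp942 and Zfp930 rose and Zfp983 fell. Of the 58 members 56 passed the filter on low counts, and among the called members Zfp978 did so only through its tumor libraries. The 6 higher members are 10.7% of those tested, against 3.80% of all genes tested, and the 1 lower member is 1.79%, against 3.91%. Log2 fold changes were above 0 in 48 of the 56 (85.7%), against 48.5% of all genes, and their median was 0.32 against -0.02. The call of every one of the 7 ended when control library 1, control library 3, tumor library 2 or tumor library 3 was left out, with adjusted p between 0.0701 and 0.171, and the calls over all genes, higher and lower, were 0.00% and 0.00% without control library 1 or tumor library 3, 0.00% and 0.0380% without control library 3, and 0.00633% and 0.0127% without tumor library 2. Without control library 2 there were 8 members higher and 2 lower (all genes 7.66% and 6.92%), and without tumor library 1 again 6 and 1 (6.82% and 9.77%).

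**Figure D1:**
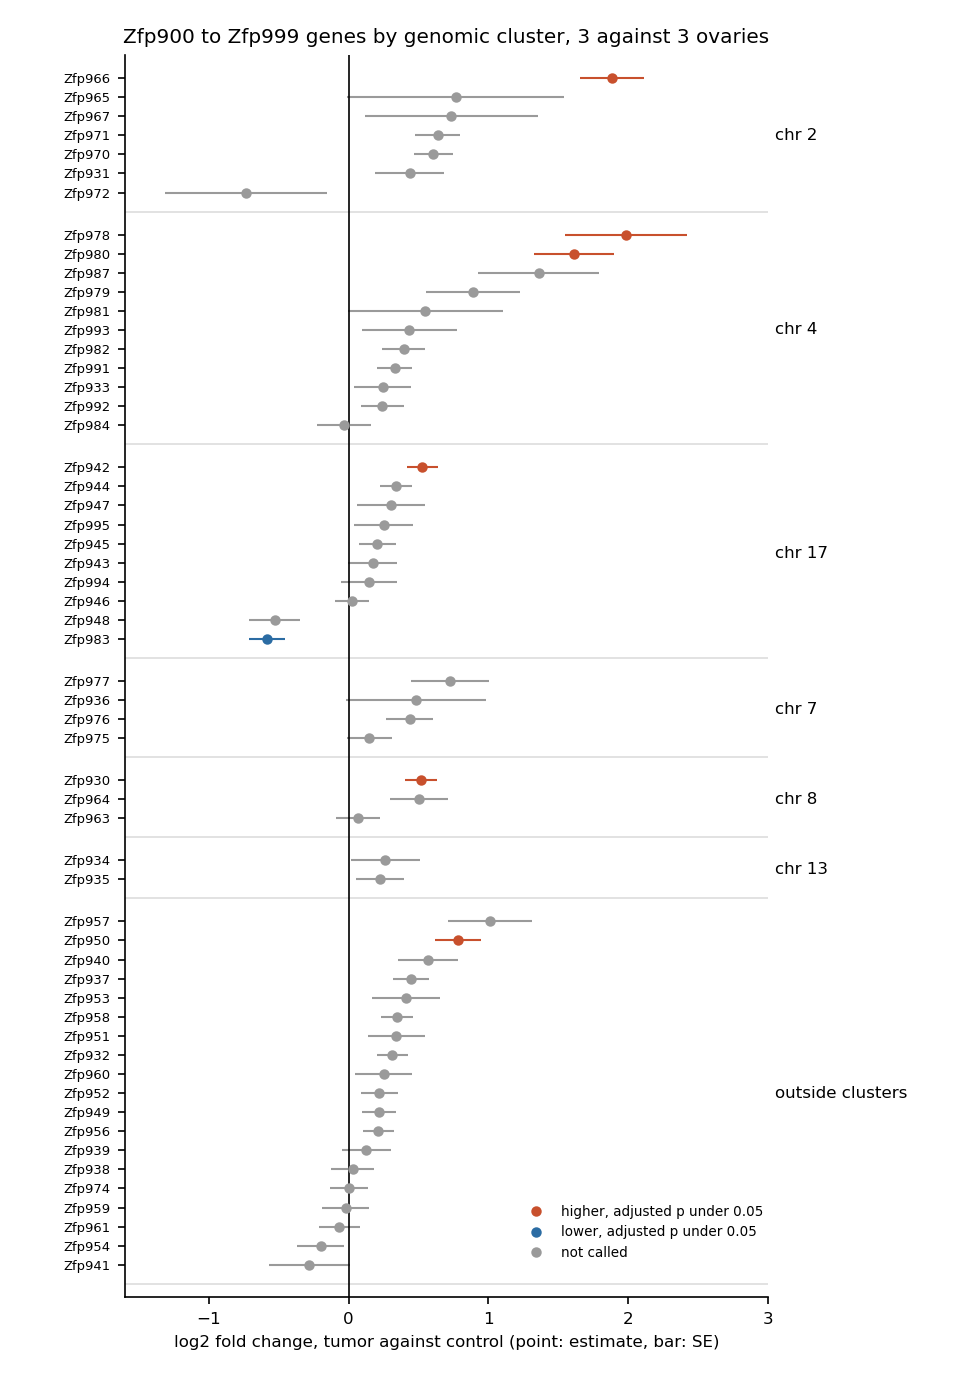
Log2 fold change of tumor against control (x axis) for the 56 tested members (rows), grouped by genomic cluster; points are estimates, bars are standard errors, red and blue mark members with an adjusted p under 0.05. The estimates lie above 0 for 48 members, from -0.73 for Zfp972 to 1.98 for Zfp978.

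Genes of related kinds lay in the same direction. Of 298 other tested genes named Zfp with a number, 14 were higher (4.70%) and 1 was lower (0.336%), with a median of 0.20 and 73.2% above 0. Of 248 other tested genes annotated with a KRAB domain, 13 were higher (5.24%) and 1 was lower (0.403%), with a median of 0.24 and 81.0% above 0. Over all genes tested 3.80% were higher and 3.91% lower. These differences between families were not tested. Members also differed from most genes in base composition, with a median GC content of 39.1% over 53 tested members, against 51.0% over all tested genes, 47.9% for the other numbered Zfp genes and 44.5% for the other KRAB genes. After a correction for GC content, added after seeing the data, the members' median was 0.16 against 0.06 over all genes, 40 of 56 were above 0, and 1 member was called higher and 0 lower (all genes 0.754% and 0.665%), namely Zfp966 (log2 fold change 1.62, adjusted p = 0.0351; 1.28e-10 to 0.219 over its alternatives). The oocyte marker list moved with the group too, with 9 of 18 genes called higher (50.0%) and all 18 above 0. Over all genes tested 3.80% were called higher and 48.5% lay above 0. The part of any of these lists in the members' values was not tested. In bulk tissue, a changed number of cells of a type and a changed amount of RNA per cell cannot be told apart.

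Zfp966 showed the smallest p of all members. Its level was 6.48, 6.20 and 4.41 CPM in control libraries 1, 2 and 3 and 25.8, 18.1 and 19.2 CPM in tumor libraries 1, 2 and 3. Every tumor library thus lay well above every control library. The group means were 5.70 ± 1.12 and 21.1 ± 4.16 CPM (SD, n = 3 per group), and edgeR estimated the log2 fold change at 1.88 ± 0.23 (SE, adjusted p = 0.0277). The gene lies at chr2:175918283-175931100 in RefSeq, 0.902 Mb from the first gene start of the cluster, and carries a KRAB domain. Its deposited entry spans chr2:175016639-176204516 on the plus strand, while its RefSeq promoter is on the minus strand. Whether all its counts came from the RefSeq locus was not tested. The authors' deposited table gave a log2 fold change of 1.91 and a q-value of 1.63e-10.

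Rises on distal chromosome 4 were at low levels. Zfp980 (chr4:145670697-145704437), a KRAB member, was measured at 0.594, 0.909 and 0.699 CPM in control and at 2.08, 2.13 and 2.56 CPM in tumor. Its log2 fold change was 1.61 ± 0.29 (SE, adjusted p = 0.0385), and on the scale of log2 FPKM plus 1 it was 0.42. Zfp978 (chr4:147124882-147392027), for which no KRAB or zinc finger domain was annotated, had 3.07, 5.39 and 2.02 estimated counts in control and 14.0, 11.1 and 15.6 in tumor. Its control libraries lie near the limit of 3 counts, and the tumor libraries all lie above them. The summed counts, 10 and 41 after rounding, give a ratio of 4.06 with an exact 95% interval of 1.999 to 9.08 for counting error only. That interval takes estimated counts as whole reads and leaves out the uncertainty in dividing reads between related genes. The fitted log2 fold change was 1.98 ± 0.44 (SE, adjusted p = 0.04795), and with DESeq2 the gene had no adjusted p. Zfp978 passed the filter on low counts only through its tumor libraries, where it is high. With no such filter its edgeR adjusted p was 0.0627 and it was not called. The RefSeq span of Zfp978 overlaps those of Zfp991 and Zfp988, and that of Zfp980 overlaps a noncoding gene, Gm26763. No gene of the expression data carried the symbol Zfp988. As no source states strand-specific counting, reads of overlapping genes on opposite strands could not be told apart.

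Further members rose at moderate levels. Zfp950 (chr19:61053840-61140844) stood at 47.9, 70.5 and 57.5 CPM in control and at 88.1, 113 and 101.6 CPM in tumor, which is 0.78 ± 0.17 higher on the log2 scale (SE, adjusted p = 0.0451), and its span overlaps that of Grk5. Zfp942 (chr17:21926960-21962503) was at 16.5, 19.4 and 16.6 CPM in control and at 25.3, 25.6 and 24.8 CPM in tumor. Its tumor libraries lay within 1 CPM of each other and all above control, by 0.53 ± 0.11 on the log2 scale (SE, adjusted p = 0.0459). Zfp930 (chr8:69209018-69230539) had the smallest spread within groups of the 7 called members, at 14.4, 14.7 and 13.7 CPM in control and at 21.5, 19.3 and 20.4 CPM in tumor, a rise of 0.52 ± 0.11 (SE, adjusted p = 0.0476). After the correction for GC content the last 2 had 0.28 and 0.34 and Zfp950 had 0.61, with adjusted p of 0.26, 0.195 and 0.112; over all alternatives these p lay between 0.000881 and 0.381.

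Zfp983, a KRAB gene at chr17:21650572-21664966, was the 1 member that fell. It was measured at 42.8, 35.8 and 43.0 CPM in control and at 23.7, 28.2 and 29.3 CPM in tumor, with no overlap between groups. On the log2 scale it fell by 0.58 ± 0.13 (SE, adjusted p = 0.0474). Corrected for GC content it was -0.78 with an adjusted p of 0.0856, within a range of 0.00572 to 0.306 over its alternatives. Zfp948, whose gene starts less than 0.1 Mb away, had 30.5, 23.0 and 33.2 CPM in control and 16.6, 22.3 and 21.2 CPM in tumor. These groups did not overlap either, but the log2 fold change, -0.53 ± 0.18 (SE), missed the threshold (adjusted p = 0.112).

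**Figure D2:**
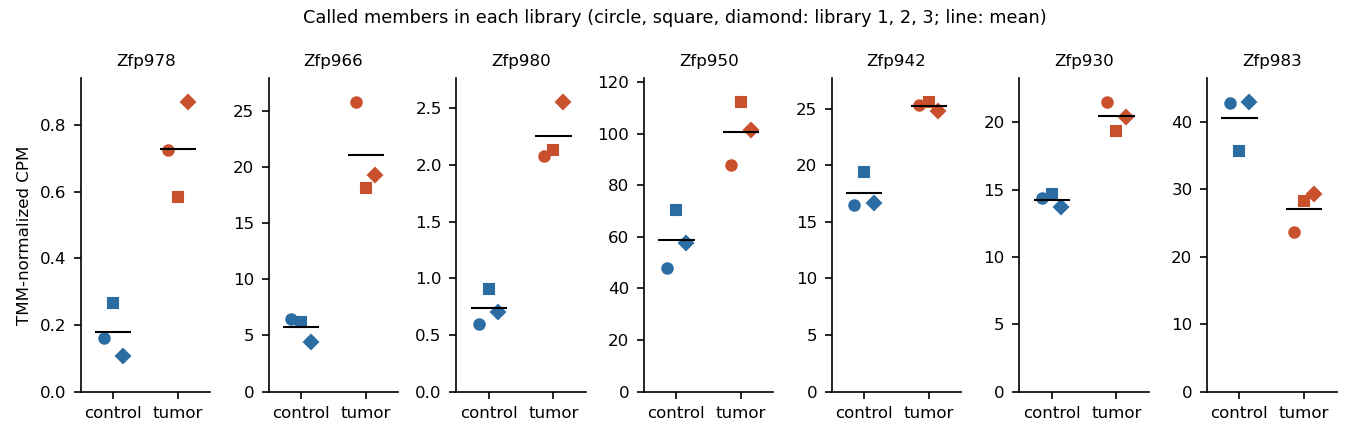
TMM-normalized CPM (y axis, from 0, scaled per gene) of the 7 called members in the 3 control and 3 tumor libraries; circles, squares and diamonds are libraries 1, 2 and 3 of a group and lines are means. In each panel the groups do not overlap, with Zfp983 alone lower in tumor.

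Without regard to the test, the groups did not overlap in 26 members that were higher in tumor and in 2 that were lower, against 19.7% and 18.4% of all genes tested. An unadjusted p under 0.05 was reached by 23 members (41.1%), against 31.0% of all genes. The authors' deposited table had q under 0.05 for 8 members above 0 and 1 below, against 7.36% and 7.30% of its genes. Besides 5 of the 6 called above, these were Zfp957, Zfp970 and Zfp971, while Zfp978 had a q of 0.14 in that table.

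On distal chromosome 2 the 7 members had a median log2 fold change of 0.64, with 6 above 0 and 1 called. Zfp970 was measured at 58.7, 82.6 and 67.5 CPM in control and at 115, 100.4 and 103.0 CPM in tumor. Zfp971 had 12.9, 14.3 and 17.9 CPM in control and 23.5, 21.0 and 25.7 CPM in tumor. Both were separated without overlap, and both fell just short of the threshold, at 0.61 ± 0.14 (SE, adjusted p = 0.0512) and 0.64 ± 0.16 (adjusted p = 0.0609) on the log2 scale. Zfp931, next to Zfp971, had 0.44 with an adjusted p of 0.278.

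Zfp972 differed from the other members of the cluster in level per length, and among these members its estimate alone was below 0. Of the other genes in the cluster, 2210418O10Rik (-0.37), Gm4724 (-0.33) and Gm14288 (-0.24) were below 0 too, none of them called. The mean FPKM of Zfp972, a level per length of transcript, was 116.2, against 19.2 for the next member, Zfp970. Zfp972 stood at 150.3, 55.3 and 161.7 CPM in control libraries 1, 2 and 3 and at 30.4, 79.6 and 111.1 CPM in tumor libraries 1, 2 and 3. The groups overlapped, because control library 2 lay below tumor libraries 2 and 3, and the log2 fold change was -0.73 ± 0.58 (SE, adjusted p = 0.439). With the oviduct marker mean as a covariate it was called lower. All cluster members summed to 243.3, 174.7 and 264.8 CPM in control and to 214.3, 242.6 and 286.6 CPM in tumor, and the groups overlapped. Without Zfp972, left out after its values were seen, the sum was 93.0, 119.3 and 103.1 CPM in control. In tumor it was then 183.9, 163.0 and 175.5 CPM.

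The cluster held 18 other KRAB genes that are not members, 17 of them tested. Their median log2 fold change was 0.34, with 14 above 0, 1 higher and 0 lower. The 1 higher was Gm14434, at 0.53 ± 0.12 (SE, adjusted p = 0.0477). Members and these neighbours together summed to 478.4, 487.6 and 554.5 CPM in control and to 582.4, 592.5 and 637.6 CPM in tumor.

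**Figure D3:**
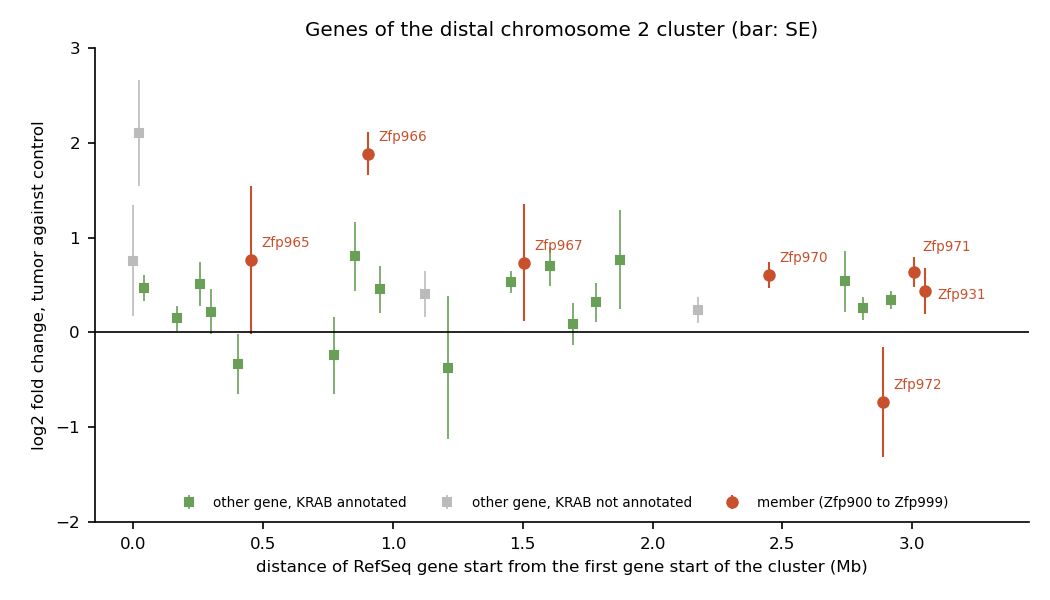
Log2 fold change of tumor against control (y axis, bars are standard errors) for tested genes of the distal chromosome 2 cluster against the distance of their RefSeq start from the first start in the cluster (x axis, Mb); circles are members, squares are other genes with or without an annotated KRAB domain. Zfp966, at 1.88, lies above the other members, and Zfp972 lies lowest at -0.73.

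Relatives in this cluster are so alike that 50-base reads cannot always be assigned to 1 gene. Over the coding transcripts of GENCODE M21, 22.5% of the 50-base windows of Zfp966 occurred in no other gene, and 67.8% were shared with Zfp968. No gene of the expression data carried the symbol Zfp968, so where its reads were counted is not known. Zfp965 and Zfp967 had 0% unique windows, the former sharing all with Gm14308 and the latter sharing all with Zfp966. Zfp965 varied between 0.962 and 9.94 CPM among controls and lay between 7.46 and 7.94 CPM in tumor, and Zfp967 varied between 1.89 and 10.9 CPM in control and between 7.22 and 14.5 CPM in tumor. On the log2 scale they differed by 0.77 ± 0.78 (SE, adjusted p = 0.552) and 0.74 ± 0.62 (adjusted p = 0.466), and the split of reads between such copies is uncertain. Summed over Zfp965, Zfp966 and Zfp967, a set chosen after its values were seen, the level was 18.3, 18.1 and 14.3 CPM in control and 41.0, 37.5 and 41.2 CPM in tumor. Among controls the sum varied less, relative to its mean, than Zfp965 or Zfp967 alone, and its groups did not overlap.

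Of the 55 members with window values, 26 had at least 90% unique windows, 22 between 50% and 90%, and 7 under 50%. The 7 were Zfp960 (18.6%), Zfp965, Zfp966, Zfp967, Zfp980 (29.3%), Zfp987 (21.0%) and Zfp991 (28.9%). Among the other called members Zfp930, Zfp950, Zfp983 and Zfp942 had 99.7%, 98.9%, 97.6% and 91.0%, and Zfp978 had no window value. Of the windows of Zfp979, a more abundant member, 21.0% were shared with Zfp978. Whether counts of Zfp978 came from reads of Zfp979 was not tested. In members at 2 CPM or more the median within-group SD of log2 CPM was 0.29 over 5 members under 50%, 0.19 over 18 between the limits and 0.18 over 24 at 90% or more, against 0.18 over all genes of that level. The 5 under 50% ranged from 0.14 (Zfp991) to 1.15 (Zfp965), with Zfp960 at 0.21, so they did not all vary widely. Members under 50% are counted here by gene, though several share their reads. Zfp972, with 76.4% unique windows and an SD of 0.92, varied nearly as widely as Zfp967.

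**Figure D4:**
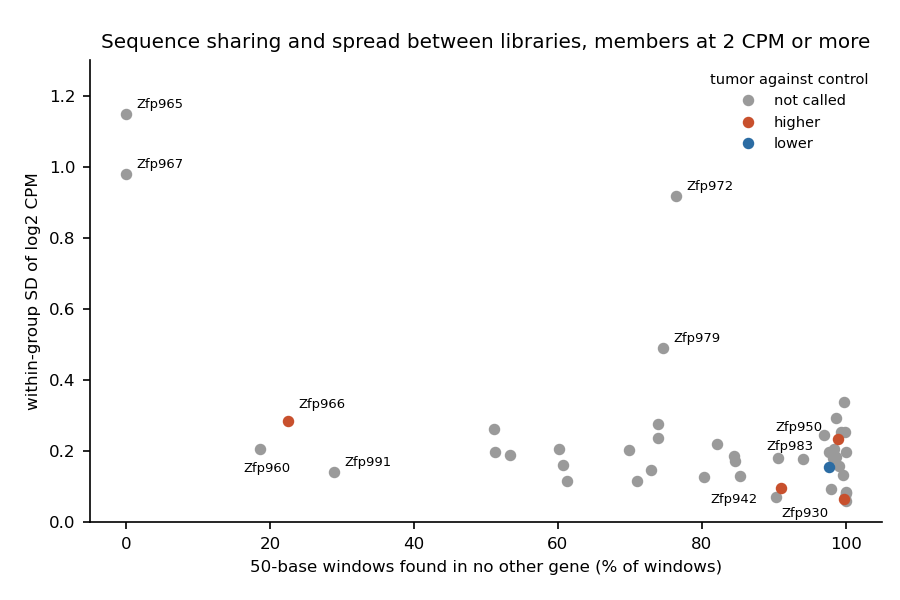
Within-group SD of log2 CPM over control and tumor libraries (y axis) against the percentage of 50-base windows found in no other gene (x axis) for the 47 members at 2 CPM or more with window values; colors give the call. Zfp965 and Zfp967, at 0% unique windows, and Zfp972, at 76.4%, have the widest spread.

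Estimated counts that are not whole numbers show reads divided among genes or transcripts. Among tested members 96.4% had such a count in at least 1 library, against 46.3% of all tested genes and 66.4% of the other numbered Zfp genes. Counts were whole to within 0.005 in all 6 libraries in 2 members, Zfp956 and Zfp961. Below the gene, 39 members had counts for 2 or more transcripts, and 111 of their 178 transcripts were at 0 in 1 to 5 libraries. For Zfp966, NM_001177405.1 took 100.0%, 16.6% and 38.0% of the gene's counts in control and 52.1%, 62.6% and 61.8% in tumor. No change of transcript use is read from such values, since the shares vary as much within control as between groups.

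On chromosome 4, 11 of 13 members were tested, 10 had log2 fold changes above 0, and the median was 0.44. Besides Zfp980 and Zfp978, the smallest p belonged to Zfp987 and Zfp991. Zfp987 was at 0.324, 0.481 and 0.861 CPM in control and at 1.56, 1.07 and 1.69 CPM in tumor, or 1.36 ± 0.43 on the log2 scale (SE, adjusted p = 0.0926). Zfp991 was at 22.7, 25.0 and 26.0 CPM in control and at 34.9, 29.9 and 27.7 CPM in tumor, or 0.33 ± 0.12 (SE, adjusted p = 0.131). Neither pair of groups overlapped, and the same held for Zfp979 and Zfp982, at 0.89 (adjusted p = 0.132) and 0.39 (adjusted p = 0.143) on the log2 scale. Zfp992, Zfp933, Zfp993 and Zfp981 had log2 fold changes between 0.24 and 0.55, and Zfp984 had -0.03. Among these Zfp992 had -0.02 after the GC correction, Zfp981 had -0.04 without tumor library 2, and Zfp984 turned to between 0.02 and 0.15 in several alternatives. Zfp985 and Zfp990 were not tested, at no more than 0.699 CPM in any library. Zfp979 and Zfp980 had promoter windows 91.0% identical. The summed level of the cluster was 115.5, 129.1 and 146.6 CPM in control and 173.1, 161.5 and 152.5 CPM in tumor, with no overlap. The 3 tested KRAB neighbours had a median of 0.04 and none was called.

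The chromosome 17 cluster held members that moved in both directions, with 1 of 10 called higher, 1 lower, and a median of 0.19. Zfp944, whose promoter window was 99.6% identical to that of Zfp942, was measured at 14.4, 16.2 and 15.6 CPM in control and at 18.95, 19.3 and 20.2 CPM in tumor. The groups did not overlap, and the log2 fold change was 0.34 ± 0.11 (SE, adjusted p = 0.105). Zfp983 and Zfp948, the 2 members with negative values, are the first members of the cluster, with other genes between them. Of the 5 tested KRAB neighbours 4 were above 0, with a median of 0.30 and none called. Zfp52, also near the start of the cluster, was the neighbour below 0 among these, at -0.82 ± 0.32 (SE, edgeR adjusted p = 0.139). Zfp943, Zfp945, Zfp946, Zfp947, Zfp994 and Zfp995 had log2 fold changes between 0.02 and 0.30, with overlapping groups, and the values of Zfp943, Zfp945, Zfp946 and Zfp994 turned negative after the GC correction, between -0.23 and -0.04. As these members cancelled, the summed level of the cluster was 168.9, 168.7 and 177.2 CPM in control and 171.8, 170.7 and 164.9 CPM in tumor.

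The members of the smaller clusters lay above 0, except that Zfp975 had between -0.05 and -0.02 after the corrections that included GC content and Zfp963 had between -0.05 and -0.02 without tumor library 3 or with a marker mean as a covariate. On chromosome 7 the 4 members had a median of 0.46 and none was called. Zfp977 (0.73 ± 0.28, SE) and Zfp976 (0.44 ± 0.17) had adjusted p of 0.139 for both, and Zfp936 and Zfp975 had log2 fold changes of 0.48 and 0.15. On chromosome 8, Zfp964 (0.50 ± 0.21) had an adjusted p of 0.158 and Zfp963, with 0.07, one of 0.814, beside the called Zfp930. On chromosome 13, Zfp934 and Zfp935 had 0.26 and 0.22, with adjusted p of 0.516 and 0.406.

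Among the 19 members outside clusters 15 were above 0, with a median of 0.22, and 1 was called, Zfp950. Zfp957, annotated with no KRAB domain, was at 1.89, 2.35 and 3.66 CPM in control and at 5.19, 4.95 and 5.78 CPM in tumor. Its groups did not overlap, and the log2 fold change was 1.01 ± 0.30 (SE, adjusted p = 0.0825). Zfp937 and Zfp958 had 0.45 and 0.35, with adjusted p of 0.0747 and 0.105. Zfp932, a known repressor of endogenous retroviruses, had 0.31 with an adjusted p of 0.113. Zfp940, Zfp949, Zfp951, Zfp952, Zfp953, Zfp956 and Zfp960 had log2 fold changes between 0.21 and 0.57, and none passed. Zfp938, Zfp939, Zfp941, Zfp954, Zfp959, Zfp961 and Zfp974 had values between -0.28 and 0.13.

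Levels per length spanned a wide range. The median of the members' mean FPKM was 4.21, with 8 members at 10 or more and 11 under 1. After Zfp972 and Zfp970 the highest were Zfp950, Zfp971 and Zfp992, with mean FPKM of 15.5, 11.0 and 10.6. Zfp971 and Zfp992 lay closer to each other than the SD of Zfp971 among controls, 1.99 FPKM. Every member had counts in at least 1 library.

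Genes of the machinery that KRAB proteins recruit were examined as a list of 34, all tested. Of these 3 were higher (8.82%), 1 was lower (2.94%) and 30 did not pass, and the median log2 fold change was 0.23. Over all genes tested 3.80% were higher and 3.91% lower. Trim28, the common co-repressor, had 382.7 ± 22.9 CPM in control against 384.3 ± 65.1 CPM in tumor (SD, n = 3 per group; log2 fold change 0.01, edgeR adjusted p = 0.982). Setdb1, the H3K9 methyltransferase, was at 77.0, 86.7 and 83.7 CPM in control and at 87.9, 93.1 and 111.9 CPM in tumor, with 0.24 and an adjusted p of 0.205. Cbx5, which encodes HP1 alpha, Dnmt3a, a de novo DNA methyltransferase, and Trim33, a relative of Trim28, rose by 0.38, 0.42 and 0.45 on the log2 scale (adjusted p = 0.0442, 0.0498 and 0.0439). Hdac1, a deacetylase, fell from 119.6 ± 4.10 to 84.6 ± 10.4 CPM, or by 0.50 on the log2 scale (adjusted p = 0.0471).

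Under the other ways of processing the members' calls moved with those over all genes. The pairs of numbers that follow are members higher and lower, with the share of all genes in parentheses. RLE size factors gave 6 and 1 (3.39% and 3.69%), no filter on low counts 3 and 0 (2.26% and 2.68%), DESeq2 9 and 1 (9.79% and 9.65%) and limma on log2 FPKM plus 1 6 and 0 (4.80% and 3.70%). The oviduct covariate gave 7 and 3 (6.81% and 9.75%), while the adipocyte covariate and the replicate block gave 0 and 0 (0.00% and 0.00%). Corrections for gene length and for length with GC content gave 1 and 0 each (0.374% and 0.431%, and 0.177% and 0.279%), in both cases Zfp966, and the latter with the block gave 0 and 0 (0.0253% and 0.101%).

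**Figure D5:**
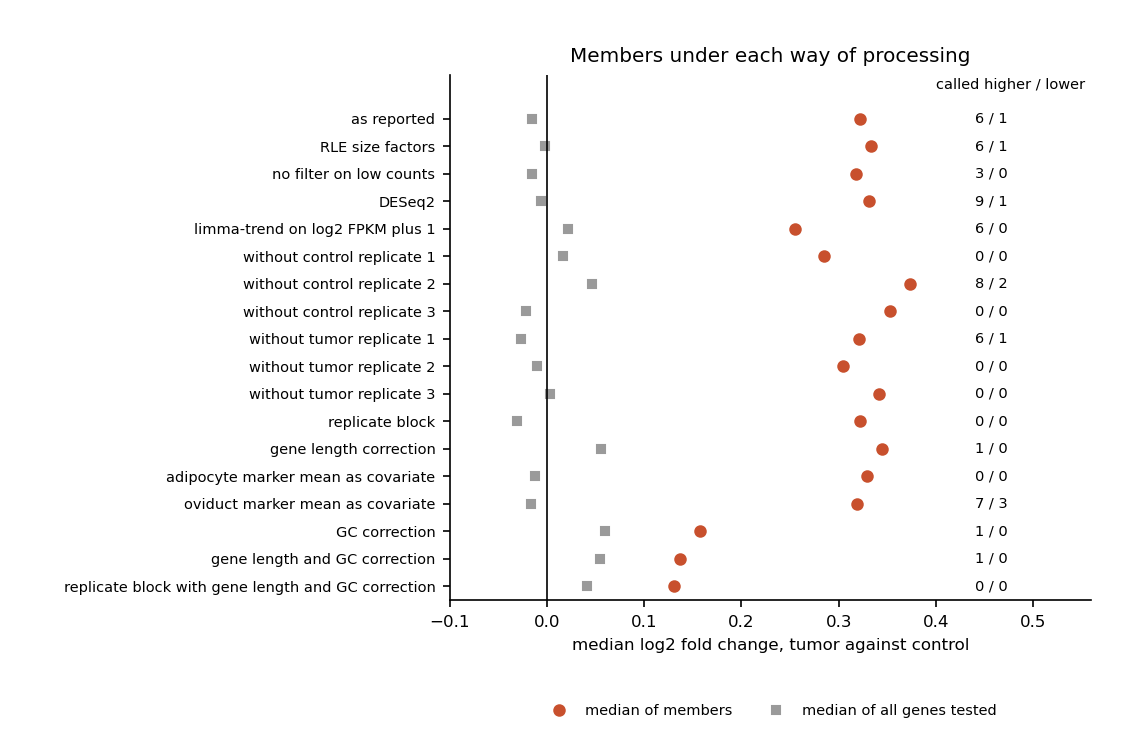
Median log2 fold change of tumor against control (x axis) over the members (circles) and over all genes tested (squares) under each way of processing (rows), with the number of members called higher and lower at the right. The members' median lies above that of all genes in every row, from 0.13 to 0.37, while the calls range from 0 to 9 higher.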

How the data were processed

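RNA of 6 ovary samples was sequenced as single-end reads of 50 bases, per the labels' protocols. The submitters' processing notes name RSEM 1.2.12, Bowtie2 2.2.5, HISAT2 2.0.4 and the build GRCm38.p6. The sources used here state neither strand nor RNA selection. The authors deposited estimated counts per gene and transcript, of which 39.2% of the gene values above 0 were not whole, and FPKM values, counts per length and depth, per the file headers. The authors' own comparison was deposited too, as log2 fold changes with p-values and q-values from DESeq2 (per the file headers). A further 36 columns of per-library values were not used.

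Counts were rounded, filtered with filterByExpr and scaled by TMM factors, between 0.962 and 1.054, in edgeR 4.0.16 (R 4.3.3). Tumor and control were compared with its quasi-likelihood F test (robust dispersion, no term but group) over 15787 genes; standard errors are the log2 fold change divided by the square root of F. On simulated counts of 15625 genes for this comparison the test recovered 72.2% of 97 genes with a 4-fold change and 35.0% of 100 with a 2-fold change. Alternatives were DESeq2 1.42.0, limma 3.58.1 on log2(FPKM + 1), other scaling and filters, each library left out, covariates, a replicate block and offsets from a loess fit with a span of 0.3 on gene length and GC content. Unique windows were counted in GENCODE M21 coding transcripts, and promoter windows came from RefSeq's GRCm38.p6 table. Named were all called members, the 4 with the smallest p in each cluster, the 5 with the highest mean FPKM, the called co-repressor genes with Trim28 and Setdb1, and the remaining members in groups. The members and lists were chosen with earlier results of these data known.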

Additional observations from a re-analysis of the deposited data

How the results depend on the processing

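The members' median log2 fold change, 0.32, stayed above 0 under every alternative run, from 0.28 to 0.37 with 1 library left out. It was 0.16 after the GC correction, 0.14 after the gene length and GC correction and 0.13 with the replicate block added to the latter, all 3 chosen after seeing the data. Members called higher and lower, 6 and 1 as reported, ranged from 0 to 8 and from 0 to 2 with 1 library left out, and lay at 3 and 0 with no filter on low counts, 1 and 0 after the gene length correction, 1 and 0 after the GC correction, 1 and 0 after both, 0 and 0 with the adipocyte covariate, and 0 and 0 with the replicate block, with or without the corrections. Limma on FPKM called 0 lower, and the oviduct covariate 3 lower; 15 members kept an unadjusted p under 0.05 with the block and 8 with the adipocyte covariate. With the replicate block edgeR called 0 of 15787 genes. Same-numbered libraries of the 2 groups deviated together with r of 0.237, -0.212 and 0.529, and control 2 correlated best with tumor 1 (0.342), so the numbers were not taken as pairs. The cause of these changes was not tested. A largest gap of 2 Mb put 41 members in clusters.

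Of 951 results of single members under alternatives 813 kept direction and side of the threshold, 73 lost and 11 gained a call, and 54 turned sign, in 14 members, none of them called. With 1 library left out the log2 fold change ranged from -0.0086 to 0.0751 for Zfp938, -0.0259 to 0.0838 for Zfp946, -0.0938 to 0.0865 for Zfp959, -0.138 to 0.111 for Zfp961, -0.0476 to 0.148 for Zfp963, -0.104 to 0.0622 for Zfp974, -0.0399 to 0.84 for Zfp981, -0.15 to 0.15 for Zfp984 and -0.0167 to 0.28 for Zfp994. Zfp974 had -0.0019 with no filter and -0.0034 with the replicate block. On FPKM Zfp961 had 0.0022 and Zfp959 0.0369. After the length correction Zfp984, Zfp961, Zfp959 and Zfp974 had 0.0186, 0.0409, 0.13 and -0.17. With the adipocyte covariate Zfp946, Zfp943, Zfp994, Zfp963 and Zfp974 had -0.0028, -0.0218, -0.23, -0.0184 and -0.13, and with the oviduct covariate Zfp984, Zfp959 and Zfp963 had 0.0829, 0.036 and -0.023. After the GC correction Zfp946, Zfp992, Zfp938, Zfp975, Zfp945, Zfp943, Zfp994 and Zfp974 had -0.23, -0.0235, -0.22, -0.0504, -0.0616, -0.0438, -0.0889 and -0.15. After length and GC correction Zfp946, Zfp995, Zfp992, Zfp938, Zfp975, Zfp945, Zfp994 and Zfp974 had -0.18, -0.0047, -0.0452, -0.0893, -0.0227, -0.24, -0.20 and -0.36, and with the replicate block added -0.19, -0.0044, -0.0292, -0.0894, -0.0381, -0.25, -0.21 and -0.36.

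With 3 libraries a group, an exact permutation of a single value cannot go below p = 0.10. Depth limited Zfp978, Zfp985 and Zfp990, near 3 counts in at least 1 library.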
